A study of Caenorhabditis elegans with 2 samples.

Results

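Chromosome X of Caenorhabditis elegans carries 276 of the 612 nuclear transfer RNA (tRNA) genes of the annotation, and these genes were examined for peaks of a chromatin immunoprecipitation (ChIP-seq) experiment on the transcription factor UNC-3. The members were taken as every gene of biotype tRNA on X in Ensembl release 115, and for each one the nearest peak summit within 500 bp of the gene was sought, with a distance of 0 for a summit inside it. There were 2 biological replicates, called replicate 1 and replicate 2, and no other group. Both were whole late embryos of strain RW12259, labelled 2.5 hours old and synchronised by bleaching. The strain carries allele st12259, in which CRISPR insertion joined unc-3 to a TY1, EGFP and 3xFLAG tag. The labels place the allele on chromosome II, whereas the annotated unc-3 gene lies on X. Chromatin was sheared by sonication to 200 to 800 bp and precipitated, per the description, with an antibody against GFP, while the antibody field names unc-3. No unprecipitated control was used here, and binding by UNC-3 itself was not tested. Signal from few cells and weak signal from many cells cannot be told apart in whole embryos.

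A tRNA carries one amino acid to the ribosome, and its gene is transcribed by RNA polymerase III. The promoter of such a gene lies inside the transcribed sequence, as an A box near its beginning and a B box near its end. Transcription factor IIIC recognises both boxes and brings in factor IIIB just upstream, which recruits the polymerase. UNC-3, of the COE (Collier/Olf/EBF) family, is an RNA polymerase II factor known for setting the identity of cholinergic motor neurons. In this organism many tRNA genes sit in introns of protein-coding genes, and X is known to hold far more of them than any autosome.

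The members measured 72 bp at the median (64 to 120 bp), and 12 of them had 2 exons. RefSeq gave an amino acid for 273, over all 20 amino acids, and left 3 undetermined. They formed 106 distinct sequences, and 219 members had at least 1 exact copy among the nuclear tRNA genes. The gene sequences below were read from the RefSeq genome WBcel235 on the strand of the gene. They are shown because they span the leading peaks and 2 families of identical genes. In these families some members had a strong peak and others a weaker one or none. Capitals mark GTTCGANNC, a core of the B box. Only this spelling was marked, so a gene without capitals was not shown to lack a B box. The proline and histidine genes were added after their values were seen.
C04A11.t1 (tRNA-Leu, chrX:13665555-13665673, + strand): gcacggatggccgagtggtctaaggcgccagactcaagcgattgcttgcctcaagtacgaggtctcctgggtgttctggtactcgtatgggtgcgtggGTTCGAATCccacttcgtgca
F15G9.t1 (tRNA-Ala, chrX:9743589-9743660, + strand) and T07H6.t2 (tRNA-Ala, chrX:6292278-6292349, - strand): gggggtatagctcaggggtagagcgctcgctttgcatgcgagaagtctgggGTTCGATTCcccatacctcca
C02B4.t2 (tRNA-Tyr, chrX:12665228-12665311, + strand): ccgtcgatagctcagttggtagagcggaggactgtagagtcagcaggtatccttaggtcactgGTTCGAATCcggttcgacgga
C33G3.t2 (tRNA-Lys, chrX:14063946-14064018, - strand): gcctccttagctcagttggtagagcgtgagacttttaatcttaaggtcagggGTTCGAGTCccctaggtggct
ZK899.t1 (tRNA-Pro, chrX:9467729-9467800, - strand): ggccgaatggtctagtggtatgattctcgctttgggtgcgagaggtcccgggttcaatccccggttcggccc
C06G1.t1 (tRNA-His, chrX:16634830-16634901, - strand): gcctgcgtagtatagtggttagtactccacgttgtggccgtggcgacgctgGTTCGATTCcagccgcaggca

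The authors' conservative list, thresholded on the irreproducible discovery rate (IDR) between the replicates, held 631 peaks, of which 134 were on X. A summit of it lay within 500 bp of 91 of 276 X tRNA genes (33.0%, exact Clopper-Pearson 95% interval 27.5 to 38.9, which covers counting error only). The same was found for 2.92% of the 5746 other X genes, for 3.01% of the 2355 other X genes of at most 200 bp, and for 0.772% of all 72 bp windows of X. Summits at tRNA genes were kept in these shares, so hosts and neighbours of tRNA genes can count through them. The 91 genes shared 77 distinct summits, so tRNA genes accounted for 77 of the 134 conservative summits on X. Summits fell inside the gene at 64 members (23.2%) and at 20.5% of autosomal tRNA genes, against 0.0545% of 72 bp windows of X. The members nearest to the limit of 500 bp lay 403, 438 and 461 bp from their summit on the near side and 509 and 516 bp on the far side.

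Each replicate alone gave most of the same genes. The thresholded list of replicate 1 had a summit within 500 bp of 68 members (24.6%, against 1.91% of other X genes), and that of replicate 2 of 79 members (28.6%, against 2.23%). Of the 91 members with a conservative summit, 64 were in both replicates' thresholded lists, 4 in that of replicate 1 only, 15 in that of replicate 2 only and 8 in neither. A further 3 members were in the authors' other thresholded list for both replicates and not in the conservative one. The members present in all 4 thresholded lists at once numbered 64.

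The long ranked lists are much less specific. They include weak peaks and also some with a higher signal than any thresholded one. In the ranked list for both replicates, 199 members had a summit (72.1%, 95% interval 66.4 to 77.3), but so did 47.4% of other X genes, 37.7% of the short ones and 24.6% of the 72 bp windows. The ranked list of replicate 1 reached 212 members (76.8%, against 56.0% of other X genes) and that of replicate 2 reached 201 (72.8%, against 56.4%). A ranked summit lay inside the gene at 106 of 276 members (38.4%) and at 119 of 336 autosomal tRNA genes (35.4%), against 2.02% of the windows. Summits inside other short genes were not counted. No summit of any list lay within 500 bp of 28 members, of which the first 3 by position were F38G1.t1 (tRNA-Thr), ZK380.t1 (tRNA-Arg) and C25F6.t4 (tRNA-Lys), all intergenic. The 148 ranked peaks that passed an IDR of 0.01 but were in no thresholded list included 30 on X, and 0 members lay within 500 bp of one.

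**Figure D1:**
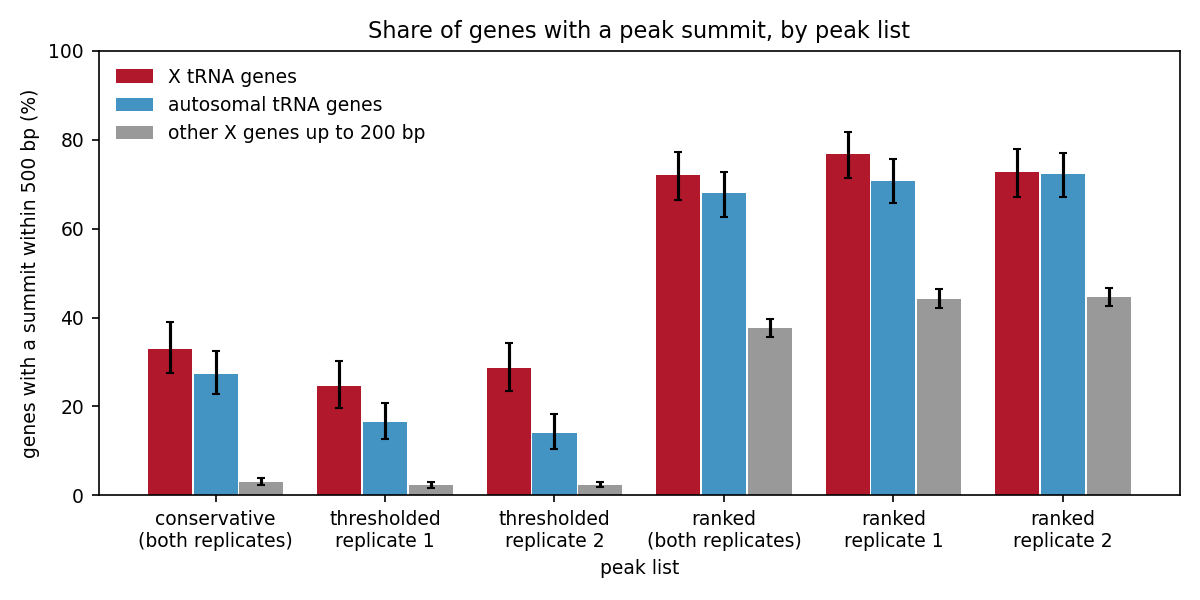
Share of genes with a summit within 500 bp (y axis, percent) for 6 peak lists (x axis), in X tRNA genes (left bars), autosomal tRNA genes (middle) and other X genes of at most 200 bp (right); error bars are exact 95% intervals. In the conservative list the shares are 33.0%, 27.4% and 3.01%, whereas in the ranked lists the other genes reach 37.7% or more.

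The summits sat on the front part of the tRNA genes. Measured from the first base of the gene in its own direction, the median conservative summit of the 91 members lay at 21.0 bp, with an interquartile range of 8.0 to 32.5 bp. Of these members, 19 had the summit upstream, 64 inside and 8 downstream of the gene. Of the 64 inside, 53 were nearer to its beginning and 11 nearer to its end, where the B box lies. Members on the + strand had a median of 17.0 bp and those on the - strand of 24.0 bp, so the position followed the direction of the gene. Among the 57 members that stood alone, with no other tRNA gene within 1000 bp, 50 had the summit inside and the median was again 21.0 bp. In the ranked lists of the replicates, members with a conservative summit gave medians of 18.5 bp in replicate 1 (90 members) and 15 bp in replicate 2 (91 members). The 92 autosomal tRNA genes with a conservative summit gave 17.0 bp. Members with only a weaker peak were less orderly: of the 108 with a ranked summit and no conservative one, 44 had it upstream, 42 inside and 22 downstream, with an interquartile range of -36.5 to 57.0 bp. The median peak of the conservative list was 264 bp wide, which bears on how exactly a summit can be placed.

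**Figure D2:**
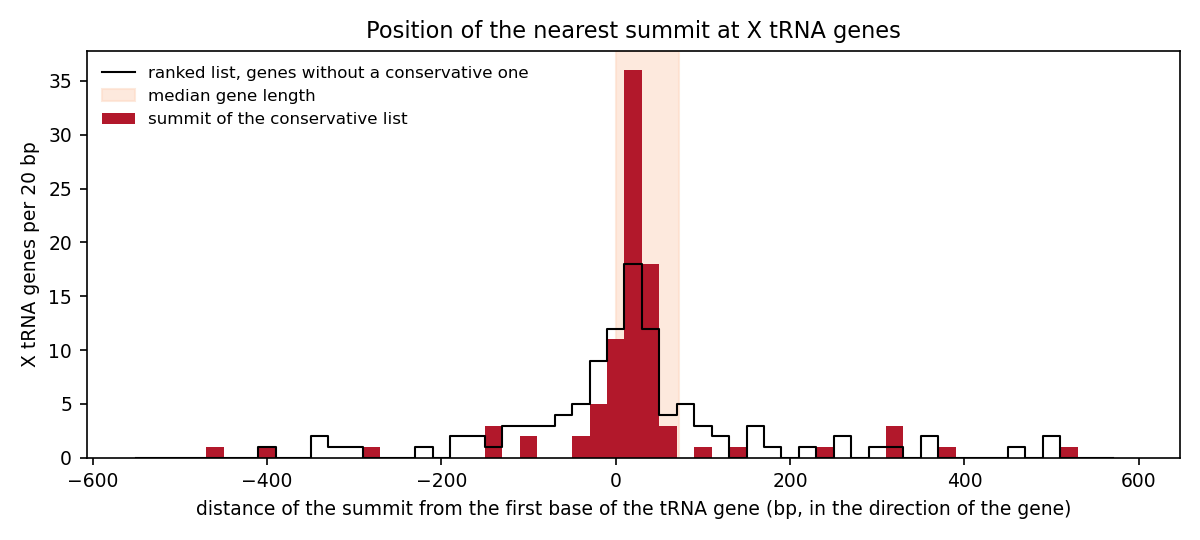
Distance of the nearest summit from the first base of the X tRNA gene (x axis, bp in the direction of the gene) against the number of genes per 20 bp (y axis); red bars are conservative summits (91 genes), the black line is the ranked list for the 108 genes without one, and the shaded band is the median gene length of 72 bp. The red bars gather over the front part of the gene, around the median of 21.0 bp.

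The deposited signal value was used to rank peaks within a list, since none of the sources used here defines it or its unit. In the conservative list it ran at the members from 6.57 to 298 with a median of 122, counting each gene. Over distinct summits the median was 122 at the 77 summits by X tRNA genes and 68.9 at the 57 other conservative summits on X. In the ranked list of replicate 1 the genes with a conservative summit had a median of 63.6 and the other members 17.4, against 15.8 for X summits away from tRNA genes. In that of replicate 2 the medians were 53.6, 17.3 and 13.9. Members without a conservative summit thus had ranked medians nearer to those of other X summits than to those of members with one. Since replicates and the conservative list come from the same libraries, these orders are not independent of how members were divided. The highest signals on X lay away from tRNA genes. In the ranked list for both replicates the highest was 3288 there and 298 at members. It was 1767 and 156 in the list of replicate 1, and 1676 and 138 in that of replicate 2.

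Over the 126 X tRNA loci with a ranked summit in both replicates, where a locus joins tRNA genes at most 1000 bp apart, the log10 signal gave Pearson r = 0.903 and Spearman rho = 0.905. The points share 2 libraries and 1 pair of peak lists, and r is a description. Within the 73 loci with a conservative summit r was 0.813, and within the 53 without one it was 0.392. The range of signals is narrower among the loci without one, which bears on r.

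**Figure D3:**
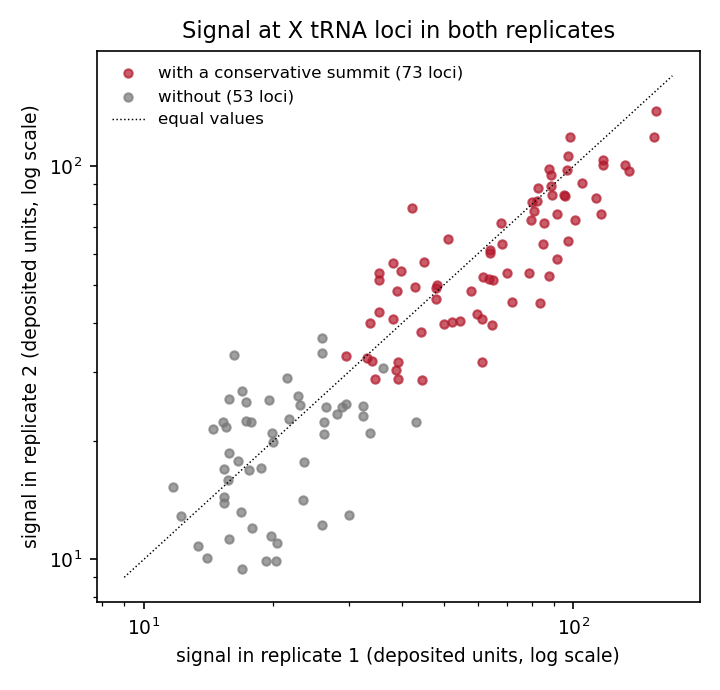
Signal of the strongest nearby summit in replicate 1 (x axis) and replicate 2 (y axis), both in deposited units on log scales, for the 126 X tRNA loci with a ranked summit in both; red points (73) have a conservative summit and grey points (53) have none. Red loci fill the upper right, with medians of 65.0 and 56.8, and grey ones the lower left, with 19.6 and 21.0.

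The strongest X tRNA peak was at C04A11.t1 (WBGene00000308), the leucine gene printed above, which is intergenic between C04A11.5 and C04A11.2. Its signal was 298 in the conservative list, 156 in replicate 1 and 138 in replicate 2, with the summit 16 bp into the gene. Unlike most members it has 2 exons and a sequence with no exact copy among nuclear tRNA genes. Next came F15G9.t1 (WBGene00014333), an alanine gene in an intron of him-4, which encodes the extracellular matrix protein hemicentin. Its signal was 274, with 154 in replicate 1 and 119 in replicate 2, and the summit lay 22 bp into the gene. The same summit was the nearest one of F15G9.t2, a second alanine gene of another sequence, for which it lay 136 bp upstream.

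W03G11.t1 (WBGene00014540), a lysine gene whose nearest protein-coding 5' end is that of the collagen gene col-181, had 232, with 132 in replicate 1 and 101 in replicate 2. T07H6.t2 (WBGene00023133), whose alanine sequence is identical to that of F15G9.t1, lay 546 bp from a 5' end of lev-9, a gene needed to cluster acetylcholine receptors, and had 224, with 135 in replicate 1 and 97.6 in replicate 2. The third X gene with this alanine sequence, T07H6.t1, sits in an intron of lev-9 and had no conservative summit. Its ranked signal was 28.9 in the list for both replicates and 18.9 in replicate 2, and replicate 1 had no summit within 500 bp. Within this trio of identical genes the pair of leading loci and T07H6.t1 thus stood far apart.

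The remaining leading loci were spread over introns and intergenic sequence and over 6 amino acids. F17H10.t1 (WBGene00014339, glycine), in an intron of the sorting nexin gene snx-17, had 222, with 117 in replicate 1 and 104 in replicate 2. C28G1.t1 (WBGene00022947, glutamate) was the only member that overlapped an exon or an edge of a protein-coding gene, C28G1.2, and had 219, with 117 and 101 in replicates 1 and 2. C02B4.t2 (WBGene00009555, tyrosine), in an intron of the nuclear receptor gene nhr-17 and on the opposite strand, had 214, with 98.0 in replicate 1 and 119 in replicate 2. In this gene and the next one replicate 2 was the higher of the replicates, in contrast to the genes named so far. F41D9.t3 (WBGene00023042, asparagine), opposite in strand to its host, the anion transporter gene sulp-3, had 204, with 97.4 in replicate 1 and 106 in replicate 2. R01H5.t1 (WBGene00014474, threonine), intergenic between npr-4 and T24D5.1, had 199, with 113 in replicate 1 and 83.3 in replicate 2. C33G3.t2 (WBGene00014275, lysine), intergenic between dyc-1 and lgc-21, had 197, with 96.9 in replicate 1 and 98.0 in replicate 2. Both replicates had all 10 leading loci in their thresholded lists, and in all 10 the summit was 5 to 36 bp from the first base of the gene.

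The highest signals among members without a conservative summit were far below these. F55F3.t2 (WBGene00014399, lysine, intergenic) had 63.2 in the ranked list for both replicates, 43.1 in replicate 1 and 22.3 in replicate 2. It belongs to the 3 genes found in the other thresholded list. F52H2.t1 (WBGene00023063, aspartate), in an intron of the amino acid transporter gene aat-3, had 59.8, with 26 in replicate 1 and 36.6 in replicate 2. F19H6.t1 (WBGene00014340, glutamate, intergenic) had 59.3, with 32.3 in replicate 1 and 23.1 in replicate 2. These values overlap the lowest conservative ones, since E01H11.t1, a methionine gene in an intron of the protein kinase C gene pkc-2, was conservative at 56.3.

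Identical gene bodies did not share one outcome. There were 20 sequences present in 5 or more X genes, covering 162 members, and in all 20 families some genes had a conservative summit and others had none. In the largest, the proline sequence of ZK899.t1, 5 of 13 X genes had one, with signals from 66.6 to 150. In the arginine family that includes T06H11.t2, 5 of 10 X genes had one, with signals from 6.57 (T06H11.t3) to 122. A lysine family had 1 of 10, namely W03G11.t1 with 232. Of 8 X genes with the histidine sequence of C06G1.t1, that gene alone had a conservative summit, with a signal of 150, and 91.5 and 58.0 in replicates 1 and 2. The median share of 50-base windows, from 250 bp before to 250 bp after the gene, that occurred more than once in the genome was 7.07% for members with a conservative summit and 7.10% for those without. Of the 5 members with over 50% such windows, 0 had a conservative summit. The gene bodies themselves are multi-copy, and the part of read placement in these differences was not tested.

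The largest loci show both extremes. The locus of F22F1.t2 to F22F1.t7 holds 6 genes for serine, aspartate, methionine and isoleucine. Its highest summit lay in the methionine gene F22F1.t6 (168 in the conservative list, 82.8 in replicate 1 and 88.2 in replicate 2). Another lay in the aspartate gene F22F1.t5 (85.4, with 46.3 and 44.2), whereas F22F1.t2 and F22F1.t3 had only ranked signals of 35.8 and 35.1. F22F1.t4 and F22F1.t7 counted through the summits of their neighbours. The other locus of 6, F28H6.t2 to F28H6.t7, consists of histidine genes with the sequence of C06G1.t1, and none of them had a conservative summit. F28H6.t2 and F28H6.t7 shared a ranked signal of 27, F28H6.t4 and F28H6.t5 had only a summit of replicate 2 (17.3), and F28H6.t3 and F28H6.t6 had none. Among these, F28H6.t3, F28H6.t6 and F28H6.t4 had 92.0%, 92.0% and 91.6% multi-copy windows around them.

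There were 195 X loci, 141 of 1 gene and 54 of several, which together held 135 genes. A conservative summit was within 500 bp at 57 of the 141 single genes (40.4%, 95% interval 32.3 to 49.0), at 17 of the 54 larger loci (31.5%, 19.5 to 45.6) and at 34 of the 135 genes in them (25.2%, 18.1 to 33.4). The intervals of the loci overlap, and the difference was not tested. The median signal was 128 at single genes and 96.2 at genes of larger loci.

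No difference by setting or by strand passed the test. Of the 276 members, 95 lay in introns of 67 protein-coding host genes, 180 were intergenic and 1 overlapped an exon or an edge. By locus, 26 of 71 intronic loci (36.6%) and 46 of 121 intergenic loci (38.0%) had a conservative summit, an odds ratio of 0.942 (95% interval 0.489 to 1.80, Fisher's exact test, two-sided, p = 0.878, adjusted p = 0.878 over 3 tests). The interval leaves room for a difference in either direction. The 3 loci left out were 2 of mixed setting and the one that overlapped an exon or edge. Among intronic genes, 50 ran with their host and 45 against it. A conservative summit was present at 10 of 35 loci on the strand of the host (28.6%) and at 14 of 31 on the opposite strand (45.2%), an odds ratio of 0.486 (95% interval 0.154 to 1.51, Fisher's exact test, two-sided, p = 0.204, adjusted p = 0.306), with 5 loci of both orientations left out. The median signal was 117 at intronic genes and 121 at intergenic ones. Loci are not biological replicates, and these p-values cover counting error only.

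Hosts with several tRNA genes differed among themselves. The apical junction gene ajm-1 holds 5 glutamine genes in its introns, of which 3 had a conservative summit, all through 1 peak with a signal of 86.8 whose summit lay 1 bp upstream of H08J11.t3. K01A12.3 also holds 5, cysteine and arginine genes, of which 0 had one, with ranked signals of 35.9 and 49.0. The potassium channel gene unc-58 holds 3, of which 2 had one. Of these, T06H11.t2 had a summit 16 bp into the gene with a signal of 122. The nearest conservative summit of its neighbour T06H11.t3 lay 70 bp beyond its end, with a signal of 6.57, the lowest of all members. It belonged to another listed peak, whose interval overlapped that of the peak at T06H11.t2. In the ranked list of each replicate the nearest summit of T06H11.t3 was the one in T06H11.t2, 277 bp away. These hosts were named after their values were seen. Of 33 members close to the 5' end of a protein-coding gene, at most 500 bp away, 11 had a conservative summit (33.3%), and of the 243 farther away 80 had one (32.9%).

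No amino acid stood alone. A conservative summit was found at genes of all 20 amino acids and at 0 of the 3 undetermined ones. Arginine tRNA genes, the most numerous, had one at 9 of 27, glutamate at 7 of 23, glycine at 7 of 20 and proline at 8 of 20. The lowest shares among amino acids with over 10 genes were those of lysine (3 of 18) and valine (3 of 14), and the highest was that of alanine (6 of 13, median signal 199). Genes that share a summit were counted separately, among them the alanine genes F15G9.t1 and F15G9.t2 at 274. With so few genes each, no test was made between amino acids. The B box core GTTCGANNC, searched on both strands, was in 72.5% of members, 72% of autosomal tRNA genes and 0.476% of end-to-end 72 bp windows of X. It was in 63 of 91 members with a conservative summit (69.2%) and in 137 of 185 without (74.1%). Other spellings of the B box were not searched.

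**Figure D4:**
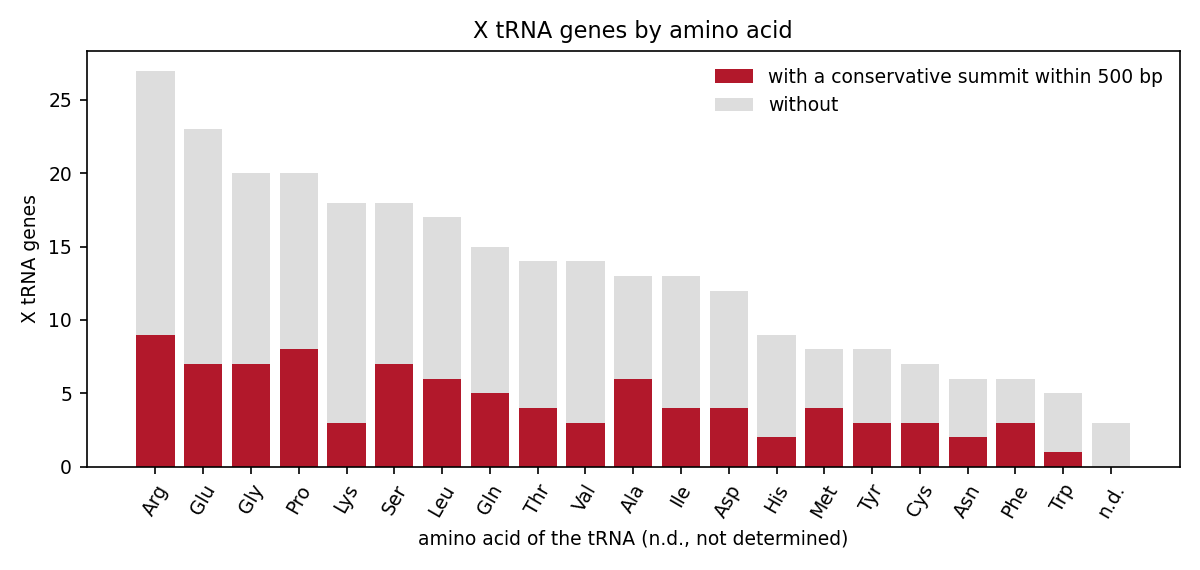
Number of X tRNA genes (y axis) for each amino acid (x axis), divided into those with (red) and without (grey) a conservative summit within 500 bp. Red parts occur for all 20 amino acids, from 9 of 27 arginine genes to 1 of 5 tryptophan genes.

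The core of the COE binding sequence, CCCNNGGG, searched on both strands, was at 0 of the 77 conservative summits by X tRNA genes within 100 bp. Taking 3 of 77 as a rough upper limit gives 3.90%, which is not the exact interval used for other shares. It was at 5 of the 57 other conservative summits on X (8.77%), at 4.44% of all conservative summits and in 0.507% of end-to-end 201 bp windows of X. The difference between these shares was not tested. A missing match says only that these letters are not in the window.

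Compared with the tRNA genes of the autosomes, those on X did not differ past the threshold in the conservative list, and whether they did depended on the list. In the conservative list 74 of 195 X loci (37.9%) and 81 of 281 autosomal loci (28.8%) had a summit, an odds ratio of 1.51 (95% interval 1.00 to 2.27, Fisher's exact test, two-sided, p = 0.0465, adjusted p = 0.140), which did not pass. By the same exact test it passed with the list of replicate 1 alone (odds ratio 1.82, adjusted p = 0.0223) and with that of replicate 2 alone (2.79, adjusted p = 1.69e-05). These thresholded lists are shorter, with 353 and 384 peaks against 631. Loci are not biological replicates, so these p-values cover counting error only. The adjustment covers 3 tests and not the choice among lists. The difference passed also for conservative peaks with a signal above the median of their list (2.21, exact test, adjusted p = 0.00111). Genes other than tRNA genes also had a summit more often on X. These include hosts and neighbours of tRNA genes, so their shares contain some of the same summits as the tRNA loci. In the conservative list it was 2.92% on X and 2.11% over all nuclear chromosomes, X included. In the thresholded list of replicate 1 it was 1.91% and 1.30%, and in that of replicate 2 it was 2.23% and 1.30%. Whether the excess at tRNA loci goes beyond this was not tested. By gene, 33.0% of X members stood beside 27.4% of autosomal tRNA genes, and single chromosomes ran from 15.4% on V to 39.1% on III. The median signal was 122 at X genes with a conservative summit and 85.2 at such autosomal genes. The order was the same in replicate 1 (63.6 on X and 44.6 on the autosomes) and in replicate 2 (53.6 and 41.5). Of the autosomes, V came closest with a median of 118 over 12 genes, and in replicate 1 its median of 74.2 was above that of X. Signal differences were not tested. The genes were chosen by the conservative list, which comes from the same 2 libraries, so the orders in the replicates are not independent of it.

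**Figure D5:**
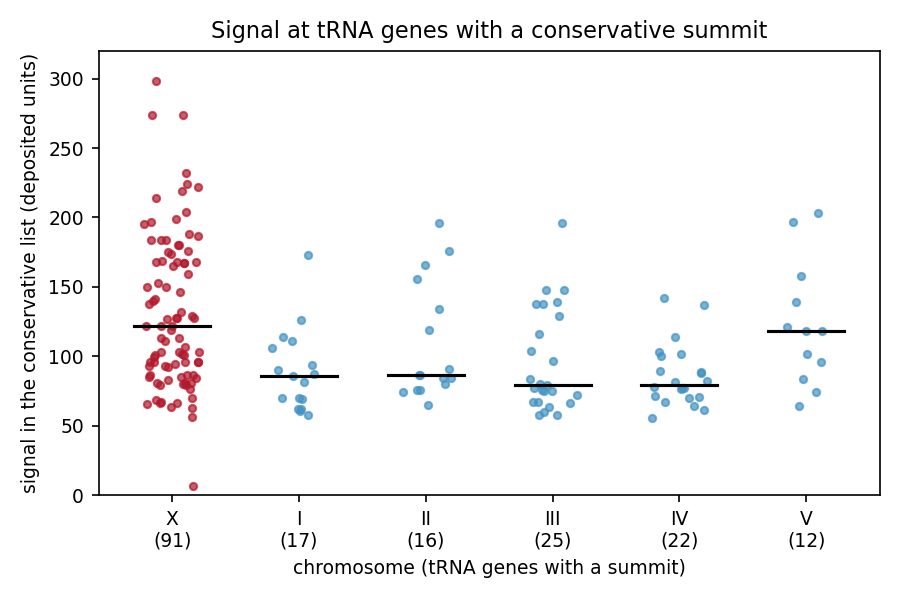
Signal in the conservative list (y axis, deposited units) at tRNA genes with a conservative summit, for X (left, red) and the autosomes I to V (blue); each point is a gene, and black lines are medians. The X median is 122, the autosomal medians lie between 79.6 and 118, and the highest value, 298, is on X. F15G9.t1 and F15G9.t2 share the summit at 274.

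Protein-coding genes of the tRNA pathway were looked up for the same peaks. Of 31 aminoacyl-tRNA synthetase genes, whose enzymes load tRNAs with their amino acids, 2 had a conservative summit within 500 bp (fars-1 and ears-2), and of 11 genes of RNA polymerase III and its factors 1 had one (rpac-19). Over all protein-coding genes it was 609 of 19973. With so few genes in the lists, nothing is read from these counts, and no listed gene lies on X.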

How the data were processed

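Peaks were mapped to the assembly ce11, per the labels, which is WBcel235, and the authors deposited them as narrowPeak lists: a ranked and a thresholded list for each of the 2 replicates, and 2 of each kind for both replicates together. The deposited signal value (column 7) was used as given, and so was the deposited −log10 of the IDR of the ranked lists. The aligner and peak caller were not given in the sources used here. Library depth is unknown, since no list holds read counts. In the 2 ranked lists for both replicates, 4 columns of signal per replicate were not used; the replicates' own lists were.

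Genes came from Ensembl release 115, and amino acids and sequence from RefSeq WBcel235. Coordinates are 1-based. Genes at most 1000 bp apart were joined into loci, so that no summit was counted for more than 1 locus. Shares carry exact Clopper-Pearson intervals, except that the upper limit for the COE core is 3 divided by the number of summits. Fisher's exact test compared 3 pairs of shares (scipy 1.17.1) with Benjamini-Hochberg adjustment and a threshold of 0.05. The matching and the test were tested on simulated data. The 2 samples are labelled as separate biological replicates. Named genes follow a rule: the 10 loci of highest conservative signal, the 3 genes of highest ranked signal without a conservative summit, the first 3 with no summit, and the largest loci. Sequences with a copy on chromosome I are not printed. Members, lists and tests were chosen with earlier results of these data known.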

Additional observations from a re-analysis of the deposited data

How the results depend on the processing

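The odds ratio (Fisher's exact test) of X against autosomal loci was above 1 in all 11 alternatives run. It passed the threshold in 4 of them: for conservative peaks above the median signal (2.21), with loci joined at 5000 bp (1.73, exact test, adjusted p = 0.0278) and in the lists of 1 replicate each (1.82 to 2.79), and the cause was not tested. The adjustment did not cover the choice among alternatives. Counted over genes the odds ratio was 1.30 (exact test, adjusted p = 0.406). The odds ratios for setting (0.635 to 0.952) and strand (0.486 to 0.727) stayed below 1 and did not pass in any of the 10 alternatives each. The share of members with a conservative summit was 24.6% to 28.6% in the lists of 1 replicate, and 27.5% to 37.9% in the other alternatives. The share with a ranked summit was 58.3% at 100 bp and 77.9% at 1000 bp, by the construction of the window, and 72.8% to 76.8% in the lists of 1 replicate. The median signal lay between 121 and 127, and the median summit position was 15 to 18.5 bp in the lists of 1 replicate. No paired analysis was possible because there is 1 group. Without read counts, peaks too weak to be listed cannot be told from absent ones.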

Other observations

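The number of X tRNA genes and their share with a peak differed along the chromosome, in a split made after the data were examined. From the left end to the right end of X, 5 successive stretches of equal length held 27, 30, 89, 74 and 56 tRNA genes. A conservative summit was at 12, 19, 25, 26 and 9 of them, which is 44.4%, 63.3%, 28.1%, 35.1% and 16.1%. The median signal of those genes was 146, 111, 92.2, 128 and 102. No test of this pattern was made. The share of other X genes with a summit in each stretch was not compared, nor was the share of single-gene loci. Genes that share a summit were counted separately.

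Members with an exact copy elsewhere among the nuclear tRNA genes had a conservative summit at 78 of 219 genes (35.6%, 95% interval 29.3 to 42.3), and members with a unique sequence at 13 of 57 (22.8%, 12.7 to 35.8). The intervals overlap and the difference was not tested. The strongest of all X tRNA peaks, at C04A11.t1, nevertheless belongs to a gene with a unique sequence.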
